A study of Rattus norvegicus with 6 samples.

Results

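The miR-30 family was followed in cells labelled as rat skeletal muscle cells, held in 2% horse serum with or without interleukin-8 (IL-8). IL-8 is a chemokine best known for attracting neutrophils. Its members were taken by name, as every arm of miR-30a, miR-30b, miR-30c, miR-30d and miR-30e with probes on the array, which gave 11 of the 719 rat miRNAs measured. The family was picked out because its levels, in earlier results from the same 6 arrays, lay higher with IL-8 as a group. Its IL-8 values are therefore given here as a description and support nothing. The IL-8 group (n = 3 samples) was primary RSkMC from limb muscle of newborn rats, frozen at the second passage, held for 11 days in medium with 2% horse serum and IL-8 at 1 ng/ml. The control group (n = 3 samples) was the same cell type, passage, medium and day with no added agent. A growth note in the labels mentions IL-8 for all 6 samples, and the titles, which call 3 of them controls, were followed. Separate cultures are not stated in the labels, so the spread between samples, and any p-value from it, may be technical. The 3 IL-8 arrays lay on one slide and the 3 control arrays on another, so slide and treatment cannot be told apart.

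MicroRNAs (miRNAs) are short RNAs that guide Argonaute proteins to messenger RNAs, mainly through the seed, bases 2 to 8 from the 5′ end. Each hairpin precursor is cut into a duplex, of which the arm on the 5′ side (5p) and the arm on the 3′ side (3p) can each enter Argonaute, usually unequally. The 5p arms of the miR-30 family share a seed and are found in most tissues. In mouse myoblasts the family has been described to rise during differentiation and to repress Tnrc6a, a partner of Argonaute. In heart cells miR-30c has been described to repress connective tissue growth factor, and in human cells miR-30a has been described to repress the autophagy protein Beclin-1.

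The mature sequences show why these arms form a family and in which bases its members differ. RefSeq (GRCr8) matched 6 of the 11 members, and miR-30b-5p, miR-30b-3p, miR-30d-5p, miR-30d-3p and miR-30e-3p are given by name. Capitals mark the seed in each sequence, written 5′ to 3′, and the last one is not among the members taken by name.
miR-30a-5p: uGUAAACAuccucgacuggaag
miR-30e-5p: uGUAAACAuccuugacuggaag
miR-30c-5p: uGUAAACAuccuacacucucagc
miR-30a-3p: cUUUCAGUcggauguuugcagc
miR-30c-1-3p: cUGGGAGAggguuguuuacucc
miR-30c-2-3p: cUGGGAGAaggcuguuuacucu
miR-384-5p: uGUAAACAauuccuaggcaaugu
The 3 matched 5p arms had the seed GUAAACA. Among 693 rat mature miRNAs in the table, miR-384-5p was the 1 other with that seed. The 3p arms carried other seeds, UUUCAGU in miR-30a-3p and UGGGAGA in both miR-30c 3p arms. Counted from the 5′ end, miR-30a-5p differed from miR-30e-5p at 1 of 22 bases, C13U. It differed from miR-30c-5p at 5 of 22 aligned bases, C13A, G14C, G18C, G19U and A20C.

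Array probes are complementary to the 3′ part of a miRNA, so they read the part in which the members differ. The probes of these 3 arms started at base 6, 7 or 8 of the miRNA and took in 1 to 3 of the 7 seed bases. Among these 3 arms, a pair of 16-base probes shows the closest case, with the differing base in capitals.
miR-30a-5p probe: cttccagtcGaggatg
miR-30e-5p probe: cttccagtcAaggatg
They differ at G10A, counted from the 5′ end of the miR-30a-5p probe, and 15 of 16 bases are identical. Cross-hybridisation between miR-30a-5p and miR-30e-5p was not tested, so the values of these arms are uncertain as separate measurements.

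The family is encoded by 6 genes in 3 neighbouring pairs. In GRCr8, Mir30e at chr5:139637450-139637541 and Mir30c1 at chr5:139634455-139634543 lie 2906 bases apart within the span of Nfyc, which encodes a subunit of the transcription factor NF-Y (chr5:139622020-139690545). Mir30a at chr9:33233941-33234011 and Mir30c2 at chr9:33253682-33253765 lie 19670 bases apart. Mir30c2 lies within the spans of a pseudogene, Rbx1-ps1, and a long noncoding RNA, LOC134480562, and no annotated gene spans Mir30a. Mir30b and Mir30d lie 3715 bases apart on chromosome 7, at chr7:102021543-102021629 and chr7:102025345-102025426, within a long noncoding RNA, LOC102551574. Whether these genes lie in exons or introns was not analysed here. The miR-30c-5p sequence cannot be assigned to Mir30c1 or Mir30c2, so its signal may come from either gene or from both.

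All 5 of the 5p arms were well above background on all 6 arrays, while none of the 6 3p arms was. Well above background is a call of the scanner software for a spot, and a probe was taken as well above background where more than 50% of its spots were. Of the 3p arms, 4 were not well above background on any array (miR-30b-3p, miR-30c-1-3p, miR-30c-2-3p and miR-30d-3p), and no signal of their probes exceeded 5.79 on an IL-8 array or 5.27 on a control array. On the arrays as a whole, 72 of 291 5p arms (24.7%) and 69 of 296 3p arms (23.3%) were well above background on all arrays. Probes differ in brightness for reasons of sequence, so the signals do not rank the arms by amount.

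**Figure D1:**
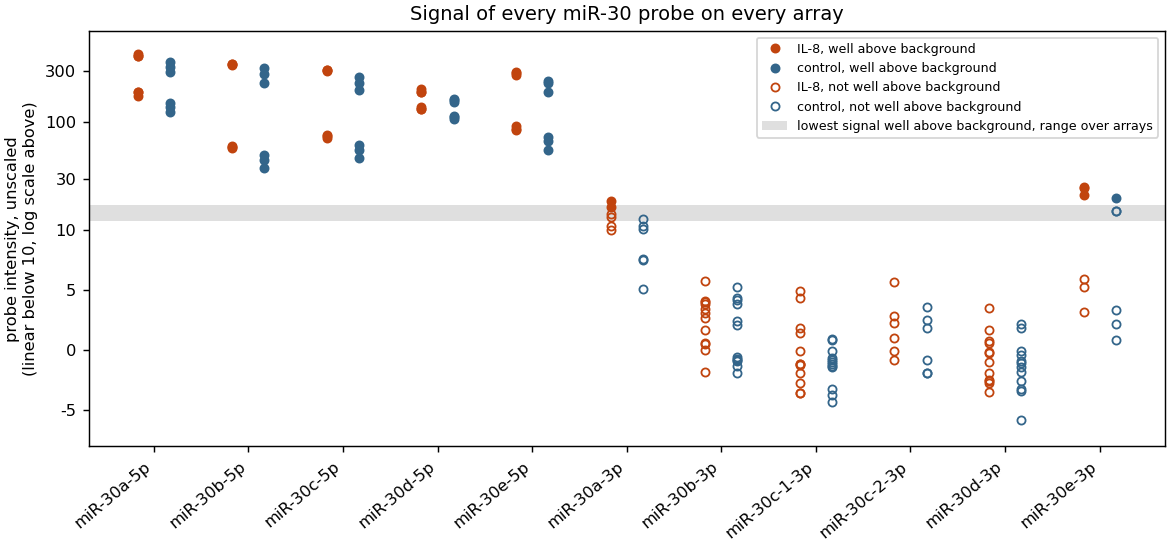
Unscaled intensity of every probe of the 11 miR-30 arms on each array, IL-8 left of control within each arm; the axis is linear below 10 and logarithmic above. Filled points were well above background and open points were not, and the grey band spans the lowest signal well above background, 12.3 to 17.1 over the arrays. All 5p probes lie above the band, and of the 3p arms only miR-30a-3p and miR-30e-3p reach it.

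The seed-sharing 5p arms had small differences between the groups, with higher means with IL-8 for all 5, by 1.04-fold to 1.14-fold. None of these changes passed the limma test at an adjusted p under 0.05 (adjusted p from 0.142 to 0.656). Levels below are log2 values relative to the 75th percentile of the array, taken over the 264 probes that passed background on every array, and are means of the probes of an arm. rno-miR-30a-5p had log2 levels of -1.02, -0.93 and -0.99 in IL-8 cultures, against -1.21, -1.16 and -1.09 in control cultures. Every IL-8 sample lay above every control sample, with 0.072 between the nearest samples. Its log2 change was 0.17 ± 0.06 (SE), or 1.13-fold with a 95% CI of 1.03 to 1.24.

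rno-miR-30e-5p, encoded within the span of Nfyc, had log2 levels of -1.88, -1.73 and -1.77 in IL-8 cultures, against -2.08, -1.93 and -1.89 in control cultures. The groups did not overlap, but only 0.0085 lay between the lowest IL-8 sample and the highest control sample. The log2 change was 0.18 ± 0.07 (SE), or 1.13-fold (95% CI 1.00 to 1.27). rno-miR-30c-5p had log2 levels of -1.93, -1.84 and -1.86 in IL-8 cultures, against -2.18, -2.07 and -1.96 in control cultures. Here too the groups did not overlap, and the nearest samples were 0.036 apart. The log2 change of miR-30c-5p was 0.19 ± 0.07 (SE), or 1.14-fold (95% CI 1.02 to 1.28).

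miR-30b-5p and miR-30d-5p, neighbours on chromosome 7 that in human melanoma have been described to repress the glycosyltransferase GALNT7, overlapped between the groups. rno-miR-30b-5p had log2 levels of -1.99, -1.94 and -1.93 in IL-8 cultures, against -2.24, -2.07 and -1.97 in control cultures. Control replicate 3 lay above IL-8 replicate 1, and the log2 change was 0.14 ± 0.08 (SE), or 1.1-fold (95% CI 0.976 to 1.25). Leaving out 1 sample moved it between 0.086, without control replicate 1, and 0.21, without control replicate 3. rno-miR-30d-5p had log2 levels of -1.82, -1.70 and -1.76 in IL-8 cultures, against -1.78, -1.78 and -1.88 in control cultures. Its samples were interleaved, with a log2 change of 0.05 ± 0.06 (SE), or 1.04-fold (95% CI 0.941 to 1.15). It was the smallest change of the 5p arms, and its sign turned negative when all probes set the percentile and with the normexp background. Leaving out 1 sample gave 0.024, without IL-8 replicate 2, to 0.090, without control replicate 1.

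**Figure D2:**
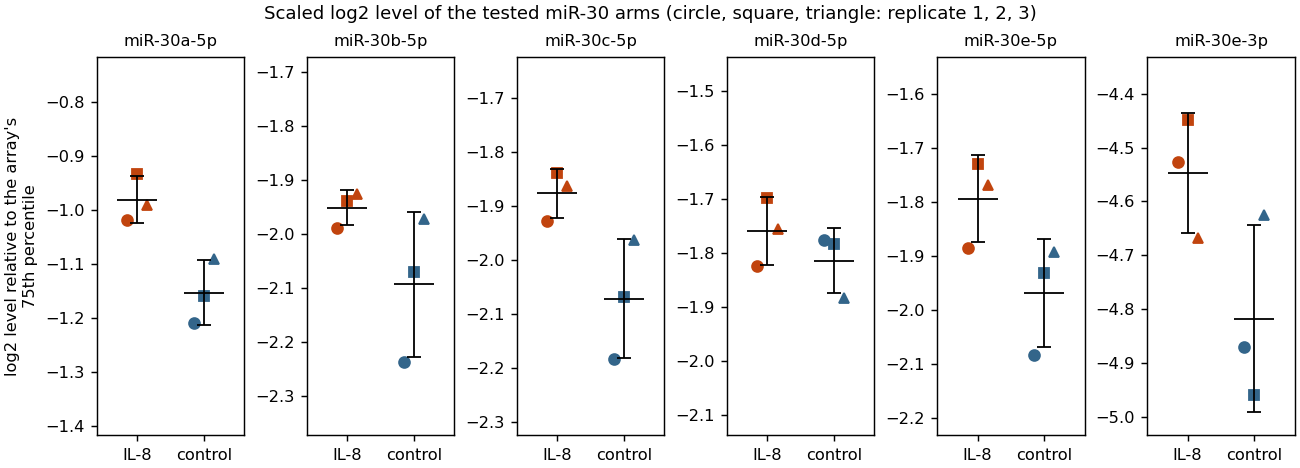
Scaled log2 level of the 6 tested miR-30 arms, IL-8 left of control; circles, squares and triangles are replicates 1, 2 and 3, and bars are the mean and SD (n = 3). Every axis spans the same range, and the groups are apart for miR-30e-5p, miR-30c-5p and miR-30a-5p and overlap for miR-30b-5p, miR-30d-5p and miR-30e-3p.

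The 5p arms also moved together from sample to sample within a group, miR-30d-5p excepted. In control cultures, replicate 1 was the lowest and replicate 3 the highest for miR-30a-5p, miR-30b-5p, miR-30c-5p and miR-30e-5p, while miR-30d-5p was lowest in replicate 3. In IL-8 cultures, all 5 were lowest in replicate 1. The mean over the 5p arms was -1.73, -1.63 and -1.66 in IL-8 cultures, against -1.90, -1.80 and -1.76 in control cultures. Pearson's r with that mean over the 6 arrays was 0.930 to 0.992 for miR-30a-5p, miR-30b-5p, miR-30c-5p and miR-30e-5p, and 0.388 for miR-30d-5p. Over all tested miRNAs the median deviation from the group mean was -0.020, 0.017 and 0.0098 in IL-8 replicates 1, 2 and 3, and -0.055, -0.0035 and 0.059 in control replicates 1, 2 and 3. The lowest and highest samples were those of the 5p mean, so the shared movement is not called particular to the family. Pearson's r over all 6 arrays also takes in the difference between the groups, on which the family was chosen. These coefficients share arrays and scaling and each arm is part of the mean, so they are a description only. The scaling divisor of the arrays ran in the same order within the control group, at 440.1, 475 and 497 for replicates 1, 2 and 3. In the IL-8 group it was 569, 549 and 539.7, where the lowest 5p mean stood beside the highest divisor. The part of array brightness in these values was not tested.

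Each 5p arm was read by 2 nested probes, and the 10 probes were each higher on average with IL-8, by log2 changes of 0.050 to 0.23. The shorter probe gave the larger change for 4 of the 5 arms. For miR-30b-5p the log2 change was 0.20 with the shorter probe and 0.086 with the longer, and for miR-30d-5p it was 0.050 and 0.059. A probe had 10 spots per array, and the coefficient of variation between them was 2.36% to 12.1% over these probes and arrays. The nested probes share their sequence and arrays, so they are not independent measurements.

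**Figure D3:**
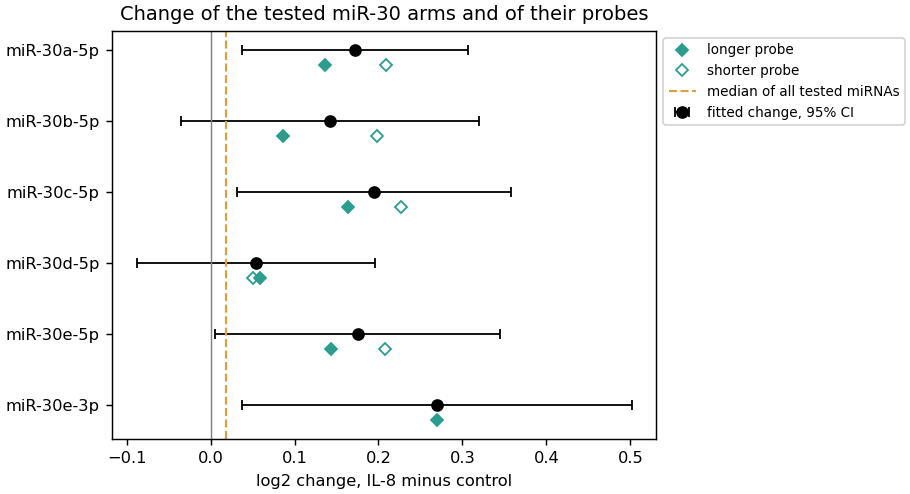
Log2 change, IL-8 minus control, of the 6 tested miR-30 arms (black points, bars are 95% CI from the limma fit) and of each probe used (diamonds, open for the shorter one). The dashed line is the median of all tested miRNAs, 0.019. All 6 points lie to the right of it, miR-30d-5p nearest and miR-30e-3p farthest.

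Of the 3p arms, miR-30e-3p was bright enough to be tested, and only through the IL-8 arrays. In human glioma this arm has been described to repress IκBα, an inhibitor of NF-κB. Its RefSeq hairpin is shown because it holds both arms. Capitals mark bases 63 to 80 of 92, the stretch complementary to the longer, 18-base probe of miR-30e-3p, and miR-30e-5p occupies bases 17 to 38.
Mir30e, chr5:139637450-139637541, minus strand, GRCr8: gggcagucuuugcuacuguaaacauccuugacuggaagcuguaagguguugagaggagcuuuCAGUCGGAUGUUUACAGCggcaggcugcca

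The longer rno-miR-30e-3p probe had unscaled signals of 24.7, 25.2 and 21.2 on the IL-8 arrays, against 15.1, 15.3 and 20.1 on the control arrays. It was well above background on all 3 IL-8 arrays and on 1 control array, replicate 3. Its scaled log2 levels were -4.53, -4.45 and -4.67 in IL-8 cultures and -4.87, -4.96 and -4.62 in control cultures. The groups overlapped, since control replicate 3 lay above IL-8 replicate 3. The log2 change was 0.27 ± 0.10 (SE), or 1.21-fold (95% CI 1.03 to 1.42). It was 0.15 with outlier spots kept, 0.13 with no filter, which adds the dim shorter probe, and -0.058 with the normexp background. Selection through the brighter group biases such a value upward, so it supports no difference. The 17-base probe, shorter by 1 base, was not well above background on any array, with signals of 3.19 to 5.93 on IL-8 arrays and 0.898 to 3.37 on control arrays.

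miR-30a-3p lay just outside that filter. The 3′ part of its sequence is nearly the same as the stretch in capitals in the Mir30e hairpin. Cross-hybridisation between miR-30a-3p and miR-30e-3p was not tested, so the values of these 3p arms are also uncertain as separate measurements. The longer miR-30a-3p probe had signals of 18.6, 16.3 and 14.1 on the IL-8 arrays, against 11.1, 10.3 and 12.7 on the control arrays. It was well above background on 2 of 3 IL-8 arrays and on 0 of 3 control arrays. No fold is given, because the IL-8 mean did not exceed the lowest level that counted as well above background on the control arrays. miR-384-5p, which shares the 5p seed, was not well above background on any array, with signals up to 6.83 on IL-8 arrays and up to 3.57 on control arrays.

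The 5p and 3p arms could be set against each other only through miR-30e-3p. The mean log2 change of the 5 5p arms was 0.15, against 0.27 for miR-30e-3p, a difference of -0.12. The 5p mean minus miR-30e-3p was 2.80, 2.82 and 3.01 in the IL-8 samples and 2.97, 3.16 and 2.86 in the control samples, with group SDs of 0.11 and 0.15. The groups overlapped. This difference rests on miR-30e-3p, which entered through the IL-8 arrays, and it supports nothing about the arms. It turned to 0.11 with the normexp background, and to 0.10 with no filter, where the 3p side is mostly arms below background.

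All 6 tested members had positive log2 changes, with a median of 0.17, against 96 of 167 tested miRNAs (57.5%) and a median of 0.019. In the limma fit, 0 of the 6 passed an adjusted p under 0.05 (Benjamini-Hochberg over all 167), with adjusted p from 0.142 to 0.656, and 4 had unadjusted p under 0.05, as did 42 of the 167 (25.1%). In the same fit 12 of the 167 miRNAs (7.19%) passed, 6 higher (3.59%) and 6 lower (3.59%). Groups did not overlap, with IL-8 higher, for 3 of the 6 members and for 27 of 167 miRNAs (16.2%); 23 miRNAs (13.8%) did not overlap with IL-8 lower. Since the family was chosen on this contrast, nothing is read from these shares. Without control replicate 3, the fit called 3 of the 6 members higher (miR-30e-3p, miR-30c-5p and miR-30a-5p), and the share of tested miRNAs called higher was then 15%.

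The size of the family's change depended on how the arrays were scaled to each other. Unscaled, the signals of the tested members were 1.22-fold to 1.41-fold higher on IL-8 arrays, and all 6 had no overlap between groups. So did 103 of the 167 tested miRNAs (61.7%). The divisor itself was higher on the IL-8 arrays, with a log2 mean of 9.11 ± 0.04 against 8.88 ± 0.09 on control arrays (SD, n = 3 each, exact two-sided permutation p = 0.1, the smallest 3 against 3 allows). The 8 spike-in probes are assumed to read RNA added in equal amount to each sample. Their log2 means were 11.81 ± 0.08 on IL-8 arrays and 11.78 ± 0.03 on control arrays (SD, n = 3 each, exact two-sided permutation p = 0.6). Scaled by the spike-ins, the median log2 change was 0.38 for the members and 0.23 for all tested miRNAs, and 5 of the 6 members passed, where 20.4% of tested miRNAs were called higher. With no scaling all 6 passed and 31.1% were called higher, with array weights 3 passed and 10.8% were called higher, and with quantile normalization 1 passed and 3.59% were called higher. The member median minus the median of all tested miRNAs was 0.16, and dividing each array by a single number cannot change it. Over the other settings it ran from 0.12 with the normexp background to 0.17 without IL-8 replicate 1.

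**Figure D4:**
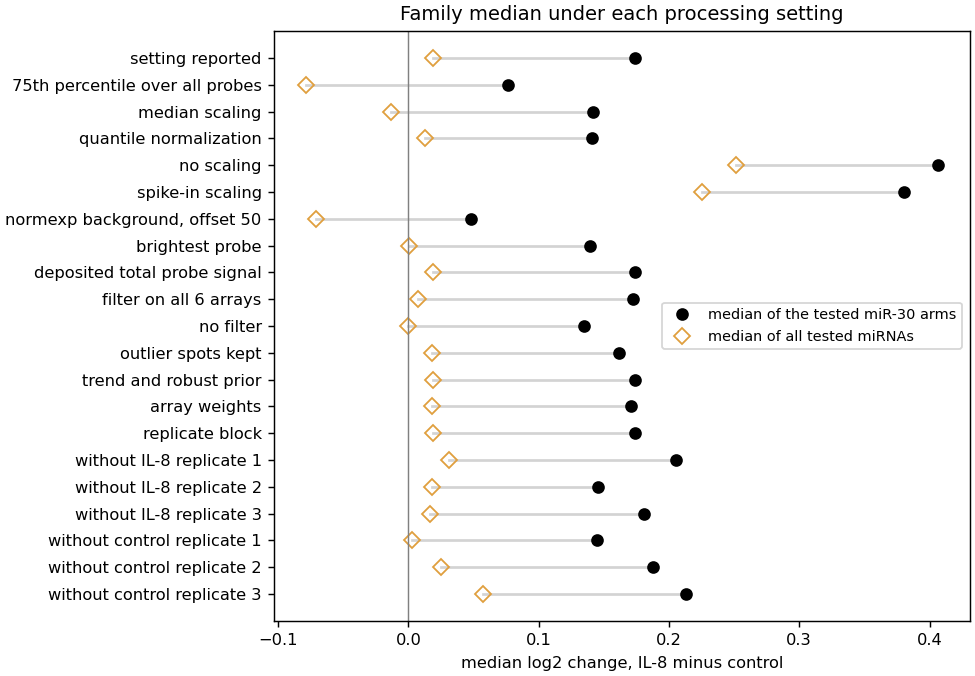
Median log2 change, IL-8 minus control, of the tested miR-30 arms (filled) and of all tested miRNAs (open) under each of the 21 processing settings, the reported one first. The family median ranges from 0.048 with the normexp background to 0.41 with no scaling, and it lies to the right of the median of all tested miRNAs in each.

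Other families with shared seeds gave a range of values in the same fit, and no test of a difference from them was made because the miR-30 family was chosen on this contrast. All 4 miR-181 5p arms were positive, with a median log2 change of 0.18, and miR-181a-5p passed as higher, with a log2 change of 0.26 ± 0.05 (SE) and a limma adjusted p of 0.0320. This call was lost in 10 of 20 other settings, among them the replicate number as a block (adjusted p 0.0692) and leaving out any 1 sample other than control replicate 3, with adjusted p from 0.00112 to 0.998 over the 20. All 3 miR-29 3p arms were positive at a median of 0.082, and 3 of 8 let-7 and miR-98 5p arms were positive at a median of -0.014. None of the miR-29 or let-7 members passed.

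The miRNAs with profiles most like the mean of the miR-30 5p arms were miR-151-5p, miR-196b-5p, miR-411-3p, miR-411-5p and miR-410-3p, with Pearson's r of 0.988, 0.978, 0.965, 0.962 and 0.961 over the 6 arrays. They were the 5 highest of 161 miRNAs outside the family, whose median r was 0.356, and 14 had r above 0.9. The 5p mean was itself higher with IL-8, so picking by r over the 6 arrays favours miRNAs that are higher with IL-8. The changes of these 5 are therefore a description and support nothing. miR-151-5p had log2 levels of -1.37, -1.29 and -1.27 in IL-8 cultures, against -1.56, -1.46 and -1.40 in control cultures, which gives a log2 change of 0.17 ± 0.06 (SE). Of the 5, only miR-411-3p passed, with a limma adjusted p of 0.0355 and a log2 change of 0.33 ± 0.07 (SE). Its call was lost in 11 of 20 other settings, among them the replicate number as a block (adjusted p 0.0616) and leaving out any 1 sample other than control replicate 3, with adjusted p from 0.00311 to 0.998 over the 20.

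Lists of miRNAs that share described targets or settings with the family held 1 call in all, miR-181a-5p, beside 7.19% of all tested miRNAs, and nothing is read from counts this small. Of 15 miRNAs tied to myoblast differentiation, 11 were tested, 1 passed as higher (miR-181a-5p) and 0 as lower, at a median log2 change of 0.082. Of 15 regulators of matrix genes and of the epithelial-to-mesenchymal transition, 7 were tested and 0 passed, at a median of 0.082. Of 8 regulators of autophagy, 8 were tested and 1 passed, again miR-181a-5p, at a median of 0.090. Over all tested miRNAs the median was 0.019.

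The striated muscle markers did not bear out the labelled cell type, since they were not detected, while most of those listed for fibroblasts and smooth muscle were. The lists do not settle which cells were present. miR-214-3p is on both the fibroblast and the myoblast differentiation lists, and 11 of the 12 myoblast differentiation miRNAs on the array passed background on every array. None of 14 arms of striated muscle miRNAs (the miR-1, miR-206, miR-133, miR-208 and miR-499 families) was well above background on any array, and no signal of their 31 probes exceeded 8.33 on IL-8 arrays or 9.23 on control arrays. Of 8 fibroblast and smooth muscle miRNAs, 7 passed background on every array, with unscaled summed signals of 57281 to 58544 on IL-8 arrays and 43348 to 57911 on control arrays. After scaling, the median log2 change of the 7 was -0.024, and 2 of them were positive. Markers of blood (0 of 7), endothelium (0 of 2) and epithelium (0 of 6) were not well above background on any array, and 2 of 5 neural ones were on all. The part of the mixture of cells in the family's values was not tested. In bulk RNA, fewer cells of a type and less RNA per cell cannot be told apart.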

How the data were processed

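Total RNA (100 ng, RNA integrity 9.5 to 10.0 per the labels) of each sample was hybridised, after Cy3 labelling, to its own array. The deposited values are spot intensities, per the file headers from Agilent Feature Extraction 10.10.1.1, with a fitted spatial surface subtracted and no scaling between arrays. The deposited value table matches the software's total probe signal (relative tolerance 0.0001). No rat miRNA spot was saturated.

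Spots of a probe were averaged without outliers. Each array was divided by the 75th percentile of the 264 probes that passed background on every array. A floor was set at a log2 of -5.45, and probes that passed background on all 3 arrays of either group were averaged. This left 167 miRNAs, and 36 of them rest on 1 probe. The groups were compared with limma 3.58.1 in R 4.3.3 and Benjamini-Hochberg adjustment; the fit was tested on simulated data. The lists and members were chosen with earlier results of these data known. The rule named every family arm, other miRNAs with its seed, the 5 most alike, and list members past the threshold. Spike-in probes were identified from general knowledge. The number of arrays limits precision. Sequences and gene positions are from RefSeq (GRCr8); IDs were handled with pandas 2.3.3 and figures drawn with matplotlib 3.10.9.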

Additional observations from a re-analysis of the deposited data

How the results depend on the processing

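The processing was varied in 20 ways. The member median minus that of all tested miRNAs, and the direction of the array divisor, held in each setting run. The member median was 0.076 with the percentile over all probes, 0.41 with no scaling, 0.38 with spike-ins and 0.048 with normexp, whose offset of 50 shrinks dim probes; leaving out 1 sample gave 0.14 to 0.21. Calls among the members were 1 with quantile normalization (miR-30a-5p), 6 with no scaling, 5 with spike-ins, 3 with array weights (a fit that stopped before its tolerance was met) and 0 to 3 on leaving out 1 sample, the 3 without control replicate 3. The difference of 5p minus 3p changes turned to 0.11 with normexp and 0.10 with no filter (-0.19 to -0.043 on leaving out 1 sample, nearest 0 without control replicate 2); it was -0.0091 with outlier spots kept and had no value with the filter on all 6 arrays, which drops miR-30e-3p. miR-30d-5p turned to -0.043 with the percentile over all probes and to -0.0023 with normexp, and miR-30e-3p to -0.058 with normexp. miRNAs called over the whole table (12 as reported) were 0 with the percentile over all probes (9 at unadjusted p under 0.05), 52 with no scaling (52 higher, 0 lower), 35 with spike-ins (34 higher, 1 lower), 24 with normexp (1 higher, 23 lower), 0 with no filter (38 at unadjusted p under 0.05 by limma), 28 with array weights and 1 to 33 on leaving out 1 sample, the 33 without control replicate 3 and the 1 without IL-8 replicate 2. It was 5, 4 and 3 without IL-8 replicate 1, IL-8 replicate 3 and control replicate 2. The cause of these shifts was not tested. Same-numbered samples shared deviations at r = 0.242, 0.324 and 0.0787 over 167 miRNAs for replicates 1, 2 and 3. The highest r with another number was 0.142, 0.0959 and 0.352. The same number thus gave the larger r for replicates 1 and 2 but not for replicate 3. Whether the numbers are pairs cannot be told from this, and they were not taken as pairs. With the replicate number as a block 3 miRNAs were called, 0 higher and 3 lower, and no member. No miRNA was called higher without IL-8 replicate 2 or control replicate 2, or with the percentile over all probes.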

Other observations

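The larger change on the shorter probe was not particular to the miR-30 family. It was seen for 4 of 5 family arms and for 95 of the other tested miRNAs with 2 probes in use (76.6%). The shorter probe minus the longer had a median log2 change of 0.064 in the family and 0.033 in the others. The shorter probe was the dimmer one for 5 of 5 family arms and 120 of the others.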
